A study of Mus musculus with 5 samples.

Results

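The 5 genes described here encode inhibitors of NF-kB signalling (Nfkbia, Nfkbie and Cyld) and survival proteins that NF-kB induces (Birc3 and Bcl2a1a). They were chosen by symbol: every probe whose single platform gene symbol was one of the 5 was taken. This gave 6 of 19828 probes, 1 for each gene and 2 for Cyld, and all 5 genes were among the 8452 named genes measured on every one of the 5 arrays. The arrays followed macrophages grown from the bone marrow of C3H/HeJ mice with human CSF-1, a factor on which macrophages depend for growth. Cultures were exposed to 10 µg per ml of LPS (S. minnesota) for 0.5, 2, 7 or 21 h, or left unexposed (0 h), and every culture, the unexposed one included, came from C3H/HeJ, a strain whose mutant Tlr4 leaves it hyporesponsive to LPS. Each time point was 1 two-colour cDNA array against RNA of whole C57BL6/J embryos of 17.5 days. The age and number of the mice, and whether mice were pooled, are not stated in the labels. With 5 arrays in 5 groups of 1, no difference between times had a replicate check and none was tested.

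NF-kB dimers are held in the cytoplasm by the IkB proteins, which are degraded after receptors such as the Toll-like receptors signal. The freed dimers switch on the genes of their own inhibitors, so that Nfkbia and Nfkbie act as feedback brakes, and those of proteins that keep an activated macrophage alive. Cyld removes the ubiquitin chains that carry the signal to the IkB kinase, and so limits it at an earlier step.

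All 5 genes matched the RefSeq promoter windows of GRCm38.p6, which run from 250 bases before to 50 after an annotated start site. The sequence bound by NF-kB, the kB consensus, was searched on both strands as a 10-letter motif. It occurred in the windows of Nfkbia, Nfkbie and Cyld and not in those of Birc3 or Bcl2a1a, and 8.46% of all 32851 windows held it. The upstream bases of the IkB genes are shown because these genes are the feedback inhibitors whose courses are set side by side below. The consensus match is in capitals. It begins 29 bases before the start site in Nfkbia and 106 before it in Nfkbie. In Cyld it begins 155 bases before the start site on which the window was drawn. The annotated start of the Cyld gene, base 88696878, lies inside this match, so the match is not upstream of the whole gene. For Cyld, where other transcripts start inside the window, 30 bases around the match are given.
Nfkbia (chr12:55492648-55492897, minus strand): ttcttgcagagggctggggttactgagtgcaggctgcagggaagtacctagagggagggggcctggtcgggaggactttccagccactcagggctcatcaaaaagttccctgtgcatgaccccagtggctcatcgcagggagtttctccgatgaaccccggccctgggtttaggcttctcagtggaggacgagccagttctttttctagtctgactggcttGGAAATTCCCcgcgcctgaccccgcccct
Nfkbie (chr17:45555450-45555699, plus strand): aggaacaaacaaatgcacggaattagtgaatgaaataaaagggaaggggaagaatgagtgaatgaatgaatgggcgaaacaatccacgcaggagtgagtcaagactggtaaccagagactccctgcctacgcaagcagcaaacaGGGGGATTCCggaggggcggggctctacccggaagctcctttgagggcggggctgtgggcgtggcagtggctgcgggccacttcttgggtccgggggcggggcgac
Cyld (chr8:88696863-88696892, plus strand): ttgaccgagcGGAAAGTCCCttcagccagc
The matches in Nfkbia and Cyld lie on the strand opposite to the one printed. A match describes these letters only, and no binding was measured here.

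Values are log ratios of the deposited table, centred on each array's median over genes, and are given in deposited log units. The base is not stated. It was read as 10, on which reading the size rule used here, a 2-fold difference, is 0.301. Ratios were taken as macrophage over embryo, a direction that the labels do not state and that is likely from marker genes. On every array 4 of 6 measured macrophage markers were above 0, with a median between 0.47 and 1.09, while Cd68 and Tyrobp were below 0 on all 5. The 12 measured embryo and erythroid markers had a median between -1.23 and -0.61, with 0 above 0 on the 0, 2, 7 and 21 h arrays and 2 above 0 at 0.5 h. The 0.5 h array stood apart: its correlation with the 0 h array across probes was 0.49, where the 2, 7 and 21 h arrays had 0.88, 0.85 and 0.77. The spread between probes of 1 gene, pooled over 2968 genes, was an SD of 0.48 after 0.5 h, 0.16 after 2 h, 0.16 after 7 h and 0.19 after 21 h, for differences against 0 h. This is the only error these arrays allow, and it holds no spread between cultures or hybridisations.

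**Figure D1:**
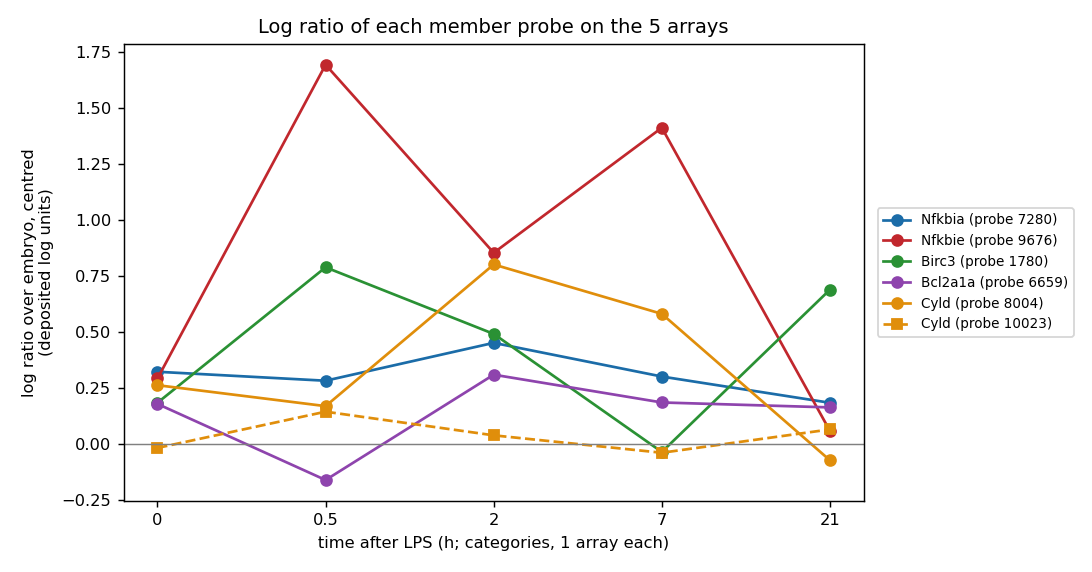
Centred log ratio over embryo, in deposited log units, of the 6 probes of the 5 genes on each array, with time after LPS in hours as equally spaced categories and 1 array per point. The line of Nfkbie stands at 1.69 at 0.5 h and 1.41 at 7 h and at 0.06 at 21 h, while that of Nfkbia stays between 0.19 and 0.45.

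Nfkbie, which encodes IkB epsilon, had the widest range of the 5 genes. Its log ratio over embryo was 0.29 unexposed, 1.69 after 0.5 h, 0.85 after 2 h, 1.41 after 7 h and 0.06 after 21 h. The 0.5, 2 and 7 h arrays were all above the 0 h array, and the 21 h array was the lowest of the 5. Set against 0 h it differed by 1.40 after 0.5 h, 0.56 after 2 h, 1.12 after 7 h and -0.23 after 21 h, so that Nfkbie was past the size rule upwards at 0.5, 2 and 7 h. At 7 h this was 13.1-fold if the base is 10 and 2.17-fold if it is 2, and 10 of 8452 genes, Nfkbie among them, had a difference as large or larger. At 2 h 95 genes did, and at 0.5 h, where the whole array was wide, 190 did. The array at 21 h was lower than that at 7 h by -1.35, a comparison that does not use the 0 h array, and 15 genes, Nfkbie included, were that low or lower. Over the 0, 2, 7 and 21 h arrays alone the range of Nfkbie was 1.35. RNA per cell and the share of cells that make it cannot be told apart in such bulk samples, here or for the other genes.

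The 0.5 h value of Nfkbie turned with the processing: with a loess trend of the difference on the mean ratio taken out it was -0.15, after quantile normalization 0.59 and when scaled to one median absolute deviation 0.78. Under each of these the 2 and 7 h values stayed past the size rule upwards. By root mean square distance over the 4 differences from 0 h, the 3 genes most like Nfkbie were Cenpw (0.14), 2210408I21Rik (0.18) and Lama1 (0.18), each on 1 probe. The Nfkbie probe has number 9676, and those of Cenpw, 2210408I21Rik and Lama1 have numbers 15397, 9712 and 9692. The single closest probe, 1 of those of Slc25a53, has number 16449 (distance 0.083). Of the 20 probes most like Nfkbie, a count made after these were seen, 16 lay elsewhere and 4 lay among its 400 nearest probe numbers, which hold 2.22% of all probes, and these 4 were 2210408I21Rik, Lama1, Ghrl and Eya2. The median difference of those 400 neighbours was -0.02 after 0.5 h, -0.02 after 2 h and 0.07 after 7 h. Their spread was wide: 42% were past the size rule in either direction at 0.5 h, 9.5% at 2 h and 9.75% at 7 h. Of all genes, with probes averaged, 30.5%, 6.81% and 4.74% were past it. At 2 h 99% of the neighbours and at 7 h 99% were below Nfkbie. A course past the rule upwards at both 2 and 7 h was found in 8 of them (2%), beside 1.14% of probes elsewhere. No array layout was used, so probe number may not follow position on the array. The part of array position in the Nfkbie values was not tested. Removing the running median over neighbouring probe numbers left Nfkbie past the size rule upwards at 0.5, 2 and 7 h. With neighbour medians so near 0 this step could change its values little, and nothing about array position is read from it.

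**Figure D2:**
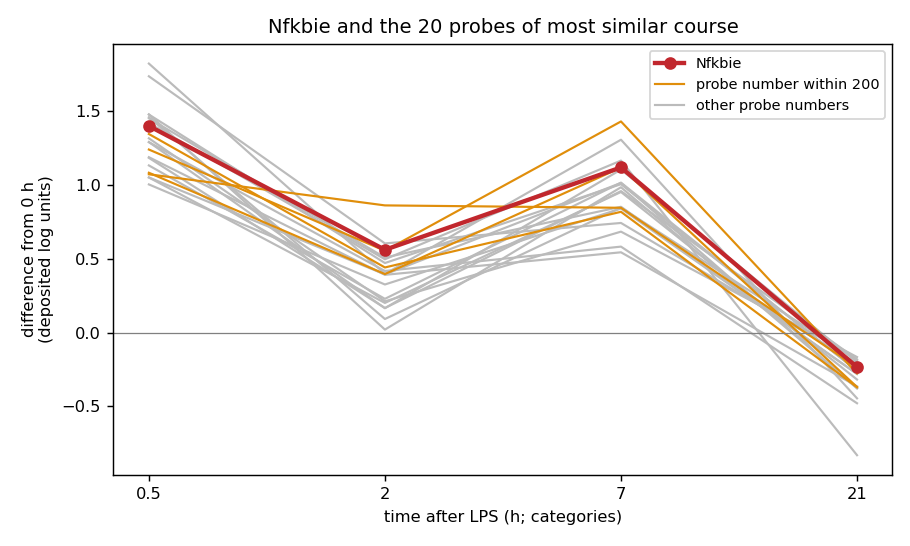
Difference from 0 h in deposited log units against time after LPS (hours, as categories) for Nfkbie (thick line) and the 20 probes whose 4 differences were closest to it, coloured by whether their probe number lies within 200 of that of Nfkbie. All lines lie above 0 at 0.5, 2 and 7 h and below 0 at 21 h, and 4 of the 20 are near neighbours by number.

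Nfkbia, which encodes IkB alpha, the inhibitor resynthesised first after NF-kB activation, differed little between arrays. Its log ratio was 0.32 unexposed, 0.28 after 0.5 h, 0.45 after 2 h, 0.30 after 7 h and 0.19 after 21 h. It was highest at 2 h and lowest at 21 h, and above 0 on all 5 arrays. From 0 h it differed by -0.04 after 0.5 h, 0.13 after 2 h, -0.02 after 7 h and -0.14 after 21 h, none past the size rule and each smaller than the pooled SD between probes at its time. At 2 h 1210 of 8452 genes had a difference as large or larger. The array at 21 h was lower than that at 2 h by -0.27. Among its 400 neighbours by probe number the median difference was -0.12 at 0.5 h, below its own value. The 0.5 h difference of Nfkbia depended on the processing. It was -0.3006 with the loess trend taken out, just short of the size rule of 0.301. After quantile normalization it was -0.22, and when scaled to one median absolute deviation -0.21.

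Cyld, a deubiquitinase that cuts lysine-63-linked and linear ubiquitin chains, was measured by 2 probes that did not follow each other. Probe 8004 had log ratios of 0.26 unexposed, 0.17 after 0.5 h, 0.80 after 2 h, 0.58 after 7 h and -0.07 after 21 h. Probe 10023 had -0.02, 0.15, 0.04, -0.04 and 0.07 at the same times. The first was thus high at 2 and 7 h and the second stayed near 0 throughout. From 0 h, probe 8004 differed by 0.54 after 2 h, 0.32 after 7 h and -0.33 after 21 h, each past the size rule taken by probe, and probe 10023 by 0.06, -0.02 and 0.08. The mean of both probes differed by 0.03 ± 0.18 after 0.5 h, 0.30 ± 0.34 after 2 h, 0.15 ± 0.24 after 7 h and -0.13 ± 0.30 after 21 h (SD over 2 probes), a spread wider than the difference each time. At 2 h the mean, 0.297, lay just under the size rule of 0.301, which it passed without centring or with the running median over probe numbers removed. A course past the rule upwards at both 2 and 7 h was found in 12 of the 400 probes with numbers nearest to 8004 (3%), beside 1.12% of probes elsewhere, and in 10 of those nearest to 10023 (2.5%). Whether position on the array bears on probe 8004 was not tested.

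Birc3, which encodes the ubiquitin ligase cIAP2 and is induced by NF-kB to block cell death, had a course with high and low arrays in turn. Its log ratio was 0.19 unexposed, 0.79 after 0.5 h, 0.49 after 2 h, -0.03 after 7 h and 0.69 after 21 h, on 1 probe. The 7 h array was the lowest and the 0.5 and 21 h arrays were the highest. Against 0 h it differed by 0.60 after 0.5 h, 0.31 after 2 h, -0.22 after 7 h and 0.50 after 21 h, past the size rule upwards at 0.5, 2 and 21 h. At 2 h the value of 0.307 lay just above the rule, and it was under it when scaled to one median absolute deviation (0.25), with the ratio-dependent trend taken out (0.24), with the probe of highest ratio for each gene (0.299) and against the mean of the other arrays (0.085). At 21 h, 97 of 8452 genes had a difference as large or larger. The array at 21 h was higher than that at 7 h by 0.72, and 53 genes had a difference as large or larger between these arrays, Birc3 among them. Of its 400 neighbours by probe number 96% at 21 h were below it, and their median there was 0.05. At 21 h 15.75% of these neighbours were past the size rule in either direction, beside 9.02% of all genes. The genes most like Birc3 over the 4 differences were Tssk3 (root mean square distance 0.05), 1700001P01Rik (0.07) and Homer3 (0.10). With the ratio-dependent trend taken out, the 0.5 h difference of Birc3 was 0.006. After quantile normalization it was 0.26, under the size rule, and when scaled to one median absolute deviation 0.306, just above it.

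Bcl2a1a encodes A1, an anti-apoptotic protein of the Bcl-2 family made in myeloid cells. The mouse genome holds near-identical copies of this gene, and a cDNA spot does not separate their transcripts, so its values may be those of several copies. The log ratio was 0.18 unexposed, -0.16 after 0.5 h, 0.31 after 2 h, 0.19 after 7 h and 0.16 after 21 h. The 0.5 h array alone was below 0, and the other 4 lay close together. From 0 h the difference was -0.34 at 0.5 h, past the size rule downwards, then 0.13, 0.01 and -0.02 at 2, 7 and 21 h. The value at 0.5 h was smaller than the pooled SD between probes of 0.48, and its 400 neighbours by probe number had a median of -0.13 there. After removal of their running median (-0.21) or without centring (-0.298) it no longer passed. Over the 4 other arrays its range was 0.15. Closest in course were Hdac3, Bpifb1 and Rpl7l1, at distances of 0.03 to 0.04.

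**Figure D3:**
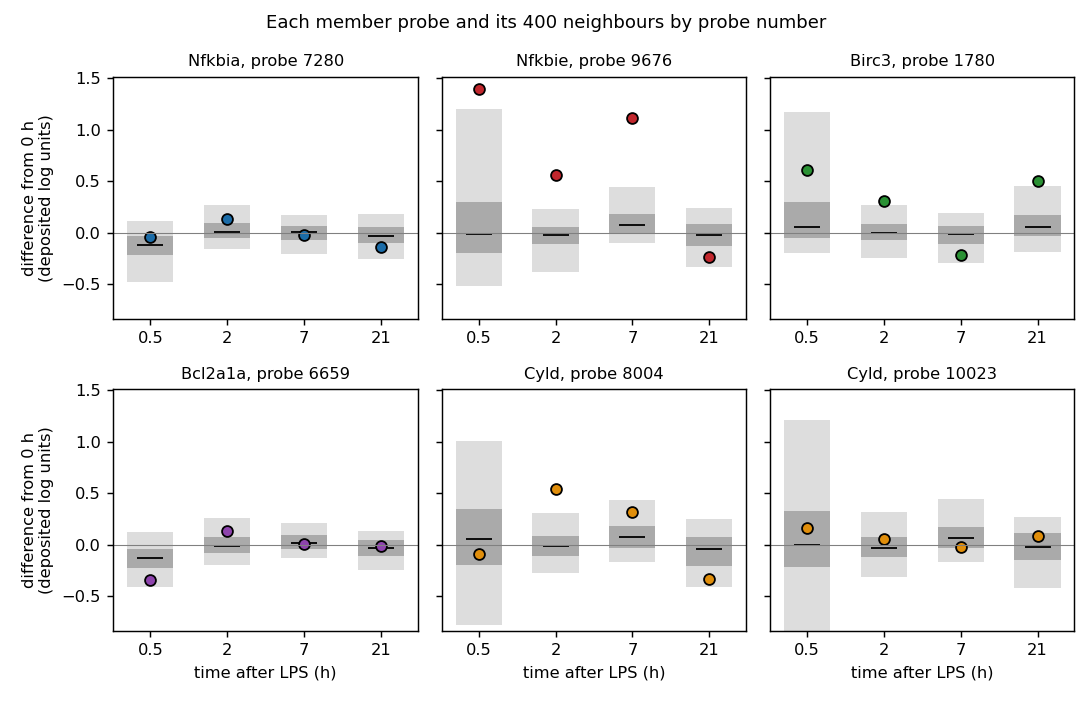
Difference from 0 h in deposited log units at each time after LPS (hours) for the 6 probes (points) and for the 400 probes nearest to each by number (dark bars the central 50%, light bars the central 90%, black marks the median). Nfkbie lies above the light bar at 0.5, 2 and 7 h, Birc3 above it at 2 and 21 h and Cyld probe 8004 above it at 2 h, while Nfkbia, Bcl2a1a and Cyld probe 10023 lie inside at every time.

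Across the 5 genes, 2 were higher and 1 lower at 0.5 h, where 19.9% of all genes were past the size rule upwards and 10.6% downwards (30.5% in either direction). At 2 h 2 were higher and 0 lower, beside 4.24% and 2.58% of all genes (6.81% together). At 7 h 1 was higher and 0 lower, beside 3.35% and 1.4% (4.74% together), and at 21 h 1 was higher and 0 lower, beside 4.33% and 4.69% (9.02% together). The genes past it were Nfkbie, Birc3 and Bcl2a1a at 0.5 h, Nfkbie and Birc3 at 2 h, Nfkbie at 7 h and Birc3 at 21 h. With so wide a 0.5 h array, nothing was read from its count of 3 of 5. The median of the 5 differences was 0.03, 0.30, 0.01 and -0.13 at 0.5, 2, 7 and 21 h. That of all genes was -0.01, -0.01, 0.02 and 0.00. At 0.5, 2 and 21 h the median of the 5 is the value of Cyld, whose 2 probes differed. Those probes were at 0.54 and 0.06 at 2 h, and at -0.33 and 0.08 at 21 h. After 0.5, 2, 7 and 21 h, 3, 5, 3 and 1 of the 5 were above 0, beside 47.7%, 45.6%, 58.1% and 50.9% of all genes. The 2 h array, where the median was highest, had a wider spread across probes than the 0 h array (SD 0.41 and 0.33). On it 2 of 6 macrophage markers were higher, Fcgr1 and Fcer1g, and 0 lower (list median 0.17), and 0 of 12 embryo and erythroid markers were higher and 5 lower (list median -0.21). The part of these in the values of the 5 genes was not tested. The 4 comparisons share the 0 h array. Read as base 2, the size rule would be passed by Nfkbie at 0.5 and 7 h and by none of the 5 at 2 or 21 h. With the ratio-dependent trend taken out, 886 genes were higher and 1060 lower at 0.5 h, against 1678 and 898 without that step, and at 7 h 170 and 192, against 283 and 118. At 7 h quantile normalization gave 298 and 292.

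**Figure D4:**
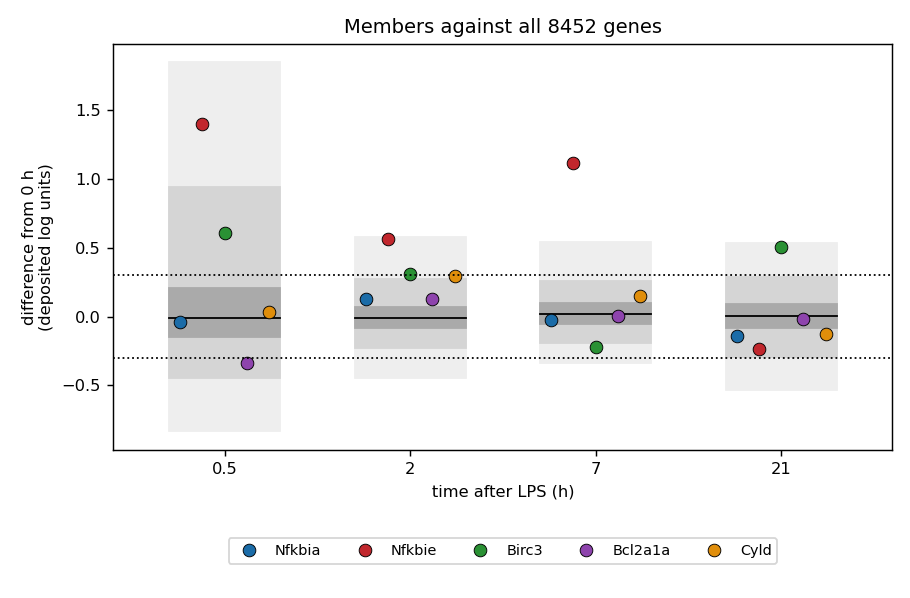
Difference from 0 h in deposited log units at each time after LPS (hours) for the 5 genes (points), over the range of all 8452 genes (dark grey the central 50%, mid grey the central 90%, light grey the central 98%, line the median); dotted lines mark the size rule of 0.301. Nfkbie lies above the light grey range at 7 h, and the 0.5 h range is the widest.

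Other genes of the pathway were read from lists of 101 genes, of which 40 were measured, meaning that they had a value on all 5 arrays. Among these, 3 were higher and 6 lower at 0.5 h, 2 higher and 1 lower at 2 h, 3 higher and 1 lower at 7 h, and 1 higher and 3 lower at 21 h. Of all genes 30.5%, 6.81%, 4.74% and 9.02% were past the rule in either direction at these times, and nothing particular to the lists is read from these counts. Their median difference was -0.05, 0.03, -0.01 and 0.03 at those times.

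On the inhibitor side, Nfkbib, which encodes IkB beta, differed by 0.26 ± 0.25 after 0.5 h, -0.04 ± 0.08 after 2 h, 0.10 ± 0.22 after 7 h and -0.10 ± 0.33 after 21 h (SD over 2 probes). Nfkbid, a nuclear IkB protein, differed by 0.13, 0.20, 0.06 and 0.01, and the Rel subunit Rela, the transactivating partner in the main dimer, by 0.05, 0.11, -0.02 and -0.09. None of these was past the size rule at any time. Upstream, Tbk1, a kinase related to the IkB kinases, was higher at 7 h (0.39), and Ikbkb and Ikbkg were past the rule at no time. Of 7 measured ubiquitin editing and scaffold genes 0 were past it at any time. At the cell surface, the lipoprotein receptor gene Tlr2 was higher at 2 h (0.36), and Irak1 was past the rule at no time. Of 13 listed receptor side genes only these 2 were measured, without Tlr4, Cd14 or Myd88.

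Among death and survival genes, Bcl2l2, an anti-apoptotic relative of Bcl2a1a, was higher at 0.5 h (0.40) and 21 h (0.49) and lower at 7 h (-0.31), on 1 probe. Traf5, an adaptor of TNF receptors, was lower at 0.5 h (-0.34) and higher at 7 h (0.53), and Birc5, the mitotic member of the IAP family, was just past the rule at 7 h (0.304). Bak1, a pro-apoptotic pore former, was higher at 0.5 h (1.08). Cflar, an inhibitor of caspase-8, was at 1.38 ± 2.15 there (SD over 2 probes), a spread wider than the difference. Casp8 (-0.63), the death receptor Fas (-0.45) and Tnfrsf1a (-0.43) were lower at 0.5 h, the array with the widest spread. At later times Tnfrsf1b, the second TNF receptor, was higher at 2 h (0.38) and Tnfrsf1a was lower at 21 h (-0.32). Mcl1, a survival protein of myeloid cells with 4 probes, was past the rule at no time and lay at 0.09 ± 0.05 at 2 h (SD over 4 probes).

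Of 22 listed NF-kB target genes 7 were measured, and Tnf, Il1b, Il6 and Nos2 were not. Of the 7, 0 were higher at any time. Of all genes 19.9%, 4.24%, 3.35% and 4.33% were higher at 0.5, 2, 7 and 21 h. Nothing is read from a count of 0 among so few genes. Saa3, an acute phase gene, was lower after 0.5 h (-0.31), 2 h (-0.36) and 21 h (-0.31). Sod2, the mitochondrial superoxide dismutase, was lower at 0.5 h (-0.32 ± 0.22, SD over 4 probes) and Cxcl10, a chemokine, at 21 h (-0.45). Ptgs2, Ccl5, Ier3 and Marcksl1 were past the rule at no time.

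**Figure D5:**
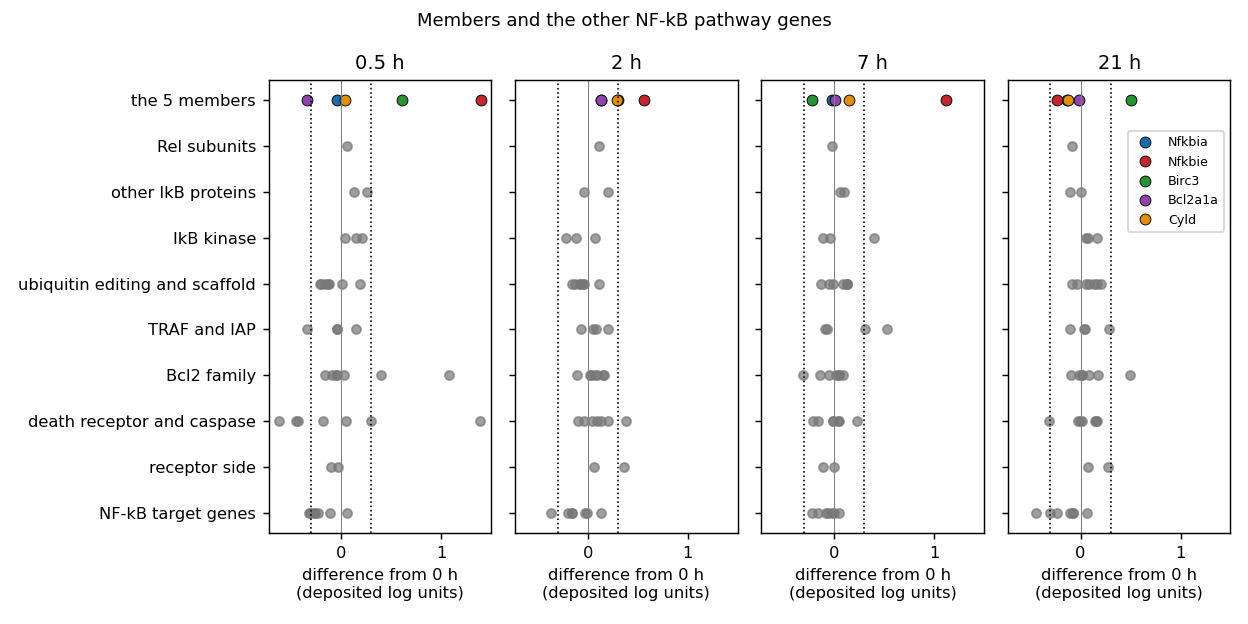
Difference from 0 h in deposited log units at 0.5, 2, 7 and 21 h after LPS for the 5 genes (coloured, top row) and for 40 other measured genes in 9 pathway lists (grey, 1 point per gene); dotted lines mark the size rule of 0.301. At 7 h Nfkbie at 1.12 stands beyond every grey point, and in each panel no NF-kB target gene lies past the right dotted line.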

How the data were processed

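Macrophage RNA at 5 times was set against embryo RNA on 1 two-colour cDNA array each. The deposited table holds 1 log ratio per probe and array, read here as log10; the base, the authors' centring and which channel is the numerator are not stated. Per the labels, amino-allyl chemistry was used for indirect labelling. The scanner, the background correction and any normalization by the authors are not stated in the sources, no spot intensities were used, and signal over background is unknown. The deposited medians were 0.04, 0.07, 0.05, 0.00 and 0.03 at 0, 0.5, 2, 7 and 21 h, with 180, 1104, 232, 257 and 154 probes lacking a value. Having 5 arrays limits the precision.

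Of 19828 probes, 14759 had 1 symbol, 170 several and 4899 none here; 14628 symbols were updated through Entrez identifiers in RefSeq (GRCm38.p6). Arrays were centred on the median over 8452 genes with values on all 5, probes of a gene were averaged, and differences from 0 h were taken. A gene was past the size rule at 2-fold. No test was run with 1 array per group.

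The 5 genes and all lists were chosen with earlier results of these data known. Named were the 5 genes, pathway genes past the size rule at any time, and the 3 genes nearest in course to each of the 5 that passed it; further pathway genes, Nfkbib and Mcl1 among them, were named after their values were seen. Markers of fibroblasts (median -0.77 to -0.40 over the arrays), neutrophils (-0.15 to -0.06), B cells (-0.64 to -0.25), T and NK cells (-0.27 to -0.04) and dendritic cells (-0.23 to -0.04) were also read. Alternatives changed centring, scaling, trend, running median over probe numbers, baseline, joining of probes, missing values, size rule and log base. The steps were tested on simulated data. Python 3.11.15, numpy 2.4.6, pandas 2.3.3, statsmodels 0.14.6 and matplotlib 3.10.9 were used.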

Additional observations from a re-analysis of the deposited data

How the results depend on the processing

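With 1 array per time the values carry no replicate error, and every count of the 5 genes past the size rule is small. No paired analysis was possible because each group held 1 array. At 0.5 h the count was 3, and 1 with the ratio-dependent trend taken out (Bcl2a1a), read as log2 or read as natural log (Nfkbie for both). At 2 h it was 2, and 1 when scaled to one median absolute deviation, with the trend removed or with a 3-fold rule (Nfkbie each time), and 0 against the mean of the other arrays or read as log2 or natural log. At 7 h it was 1. It was 2 against the 0.5 h array, against the mean of the other arrays, with the probe of highest ratio or with a 1.5-fold rule. Under these, 34.0%, 12.1%, 7.29% and 16.7% of all genes passed, beside 4.74%. Against the 0.5 h array the 2 were Birc3 (-0.82) and Bcl2a1a (0.35), without Nfkbie. The probe of highest ratio added Cyld upwards (0.33). The mean of the other arrays and the 1.5-fold rule added Birc3 downwards. At 21 h it was 1. It was 2 under the settings that gave 2 at 7 h, where 33.1%, 11.7%, 12.6% and 23.5% of all genes passed, beside 9.02%. Against the 0.5 h array the 2 were Nfkbie (-1.63) and Bcl2a1a (0.32), without Birc3. The probe of highest ratio added Cyld downwards (-0.33). The mean of the other arrays and the 1.5-fold rule added Nfkbie downwards. Read as log2 or natural log the count at 21 h was 0. Nfkbie turned to -0.15 at 0.5 h with the trend removed, to -0.0104 at 2 h against the mean of the other arrays, and to -0.84 at 2 h and -0.28 at 7 h against the 0.5 h array, where Birc3 was at -0.30 at 2 h and -0.10 at 21 h. For both Nfkbie (1.69) and Birc3 (0.79) the 0.5 h array was the highest of the 5. Every difference of these genes against it was therefore below 0. For Nfkbie at 2 h, the mean of the other arrays includes 1.69 at 0.5 h and 1.41 at 7 h. The cause of the change with the trend removed was not tested. Of the differences of single genes under alternatives, 6 turned sign. Only differences past the rule in the main setting could count here, so the 230 differences read in all are not the base of this 6. Sign changes of smaller differences were not counted. The count of the 25 log ratios above 0 moved by no more than 1.5 times. Over all genes, 14.4% were past the rule at 21 h after quantile normalization, against 9.02%, and 7.83% at 7 h with one median absolute deviation, against 4.74%.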

Other observations

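The named genes most like Birc3 in course, 1700001P01Rik, Tssk3 and Homer3, have 1 probe each. These probes have numbers 4395, 4961 and 5066, and that of Birc3 has 1780. Of the 20 probes nearest in course to Birc3, 1 lay among its 400 nearest probe numbers, as for Nfkbia, Bcl2a1a and Cyld probe 8004, and 0 did for Cyld probe 10023. At 0.5 h the correlation with the 0 h array over the 400 neighbours was 0.82 around Bcl2a1a, 0.75 around Nfkbia and 0.73 around Birc3, but 0.34 around Nfkbie and 0.20 and 0.12 around the Cyld probes 10023 and 8004 (Pearson, across probes of 1 array pair, which are not replicates).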
